A study of Mus musculus with 37 samples.

Results

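Heat shock proteins and their co-chaperones were followed in the ribosome-bound RNA of dopamine neurons and GABA neurons of the mouse midbrain. The 48 genes were chosen by name, as the main cytosolic, endoplasmic reticulum and mitochondrial chaperones with their partners, out of 57180 genes counted, and all 48 were found once in both count tables. They comprised 10 genes of the Hsp110 and Hsp70 families, 4 Hsp90 genes, 12 co-chaperones of Hsp90 and Hsp70, 8 J-proteins, 3 small heat shock proteins, 9 chaperonin genes and 2 heat shock factors.

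All mice carried the NuTRAP transgene, a floxed-stop construct at Rosa26 that encodes ribosomal protein L10a fused to EGFP, together with a Cre allele, and no Cre-negative group was analysed here. DAT;NuTRAP mice were bred from DAT-IRES-Cre (cre/cre) males, in which Cre is made wherever Slc6a3, the gene of the dopamine transporter, is active, and NuTRAP Flox/Flox females. VGAT;NuTRAP mice were bred from Vgat-ires-cre knock-in (cre/cre) males of C57BL/6J background, in which Cre follows the vesicular GABA transporter gene Slc32a1, and the same kind of females. Tagged ribosomes were pulled down with an anti-GFP antibody from the ventral midbrain, so any cell that had expressed Cre, whatever its subtype, could contribute RNA, and RNA of other cells that stayed on the beads was counted too. The DAT libraries came from 10 young mice (8 to 10.5 months) and 9 old mice (21 months). The VGAT libraries came from 10 young mice (7 to 9 months) and 8 old mice (21 to 24 months). Females numbered 5 young and 4 old in DAT, and 6 young and 5 old in VGAT. Males numbered 5 young and 5 old in DAT, and 4 young and 3 old in VGAT. The 8 first-batch and 11 second-batch DAT libraries, and the 6 and 12 of VGAT, are batches as the labels name them, and the sources used here do not say whether the batches of one model were the same as those of the other. A DAT against VGAT value given below for a batch compares libraries with the same batch label and need not be a comparison within one batch. DAT and VGAT libraries were counted in separate tables, so cell type, Cre line and table cannot be told apart.

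Chaperones bind proteins that are not yet folded or have lost their fold. Hsp70 proteins are loaded with clients by J-proteins and released by nucleotide exchange factors such as the Hsp110 and Bag proteins, Hsp90 finishes the folding of signalling proteins with the help of a set of co-chaperones, and chaperonins enclose clients in a barrel. Small heat shock proteins hold unfolded proteins until an ATP-driven chaperone takes over. Many of these genes are switched on together by heat shock factor 1, which binds heat shock elements, inverted repeats of the letters GAA, in their promoters. Neurons keep a high constitutive level of Hsp70 and Hsp90 proteins, and in the midbrain chaperones are studied because dopamine neurons accumulate misfolded proteins in Parkinson's disease.

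RefSeq promoter sequences (GRCm38.p6, 250 bases before to 50 after each start) were found for 39 of the 48 genes. Those of Hsp90aa1, Hspa8, Dnajc5, Cryab, Hsf1, St13, Cct4, Hsp90ab1 and Hspa9 were not in the table used. A heat shock element with 3 adjoining repeats, the letters GAA, any 2 bases, TTC, any 2 bases and GAA, or the reverse complement of this, was searched on both strands, and both forms can overlap in a longer run. They occurred in promoters of 5 of the 39 genes (12.8%), Hsph1, Chordc1, Dnajb6, Hspd1 and Hspe1, against 0.662% of all 27025 genes with a promoter in the table. The shorter form with 2 repeats, GAA, any 2 bases and TTC or TTC, any 2 bases and GAA, occurred for 17 of the 39 (43.6%) and for 17.0% of all genes. A match is a description of letters in this window and not of binding. The stretches below are shown because they belong to genes whose values are given in the rest of the text. They are written 5′ to 3′ on the strand of the named gene, with the repeats in capitals.
Hspe1: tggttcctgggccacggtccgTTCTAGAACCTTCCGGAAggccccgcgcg
Dnajb6: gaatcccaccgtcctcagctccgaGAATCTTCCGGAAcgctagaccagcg
Hsph1: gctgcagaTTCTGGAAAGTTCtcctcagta
Chordc1: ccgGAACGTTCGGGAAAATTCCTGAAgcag
Hspa1a: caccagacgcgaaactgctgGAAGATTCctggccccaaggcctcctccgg
Each of the first 4 stretches matched the GRCm39 genome, the build of the count tables, at a single place on its chromosome. The Hspe1 stretch lay at chr1:55127197-55127246 on the plus strand, between the divergent genes Hspe1 and Hspd1, and the same repeats were counted once for each gene. The Dnajb6 stretch lay at chr5:29940826-29940875 on the plus strand, the Hsph1 stretch at chr5:149559744-149559773 on the minus strand, just inside the transcribed region, and the Chordc1 stretch at chr9:18203556-18203585 on the plus strand, across the RefSeq start. The Hspa1a stretch, with 2 repeats, is letter for letter the same in the promoter of Hspa1b. The pair are near-identical copies: 58.8% of the 50-base windows of the Hspa1a transcript occur unchanged in that of Hspa1b, so counts of these genes are uncertain.

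The libraries held 13841253 to 38235015 counts, and in 42 of the 48 genes every library had at least 100 counts. The sparse exceptions were Hspb1 (0 to 349 counts), Hspa1b, Hspa1a, Bag3, Cryab and Hspb8. Second-batch DAT libraries detected fewer genes (14323 to 18170) than first-batch DAT libraries (19085 to 21051), whereas VGAT libraries detected 18485 to 21803. Markers of the labelled cell types were on the labelled side: all 8 dopamine neuron markers were higher in DAT, Slc6a3 by 2.03 ± 0.14 and Th by 3.23 ± 0.13 (log2 fold change ± SE), and all 8 GABA neuron markers were higher in VGAT, with Slc32a1 at -2.14 ± 0.09. Astrocyte (9 of 10), oligodendrocyte (10 of 10) and endothelial and mural (10 of 10) markers were also called higher in DAT. In these bulk libraries fewer cells of a type and less RNA per cell cannot be told apart. Throughout, CPM are counts per 1000000 counts of the tested genes, scaled with TMM factors, log2 fold changes carry the standard error of the edgeR quasi-likelihood fit, and a gene was called at a Benjamini-Hochberg adjusted p below 0.05 over all genes tested.

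The chaperone RNAs were abundant, and a few of them made up much of the total. Per kb of exon, Hsp90ab1, the constitutive cytosolic Hsp90, had the highest level, 496 CPM per kb in DAT and 382 in VGAT. Hspa8, the constitutive Hsp70 that also uncoats synaptic clathrin vesicles, followed with 344 CPM per kb in DAT, and Hsp90aa1, the stress-inducible Hsp90, with 339. In VGAT the order of these neighbours was turned, with Hsp90aa1 at 330 and Hspa8 at 261. The spread between libraries covers the small gap between them in DAT, so their order there is not firm. Together the 3 genes took 44.0% of the summed CPM of the 48 genes in DAT. Stip1, the adaptor that hands clients from Hsp70 to Hsp90, and Hspa5, the Hsp70 of the endoplasmic reticulum, came next, in this order, in both models. At the other end of the scale stood the heat-inducible Hsp70 genes Hspa1a (1.86 and 2.48 CPM per kb in DAT and VGAT) and Hspa1b (2.04 and 2.24), with the co-chaperone Bag3 (2.15 and 2.28). In VGAT the lowest of all was Cryab, at 1.27 CPM per kb, against 3.91 in DAT.

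**Figure D1:**
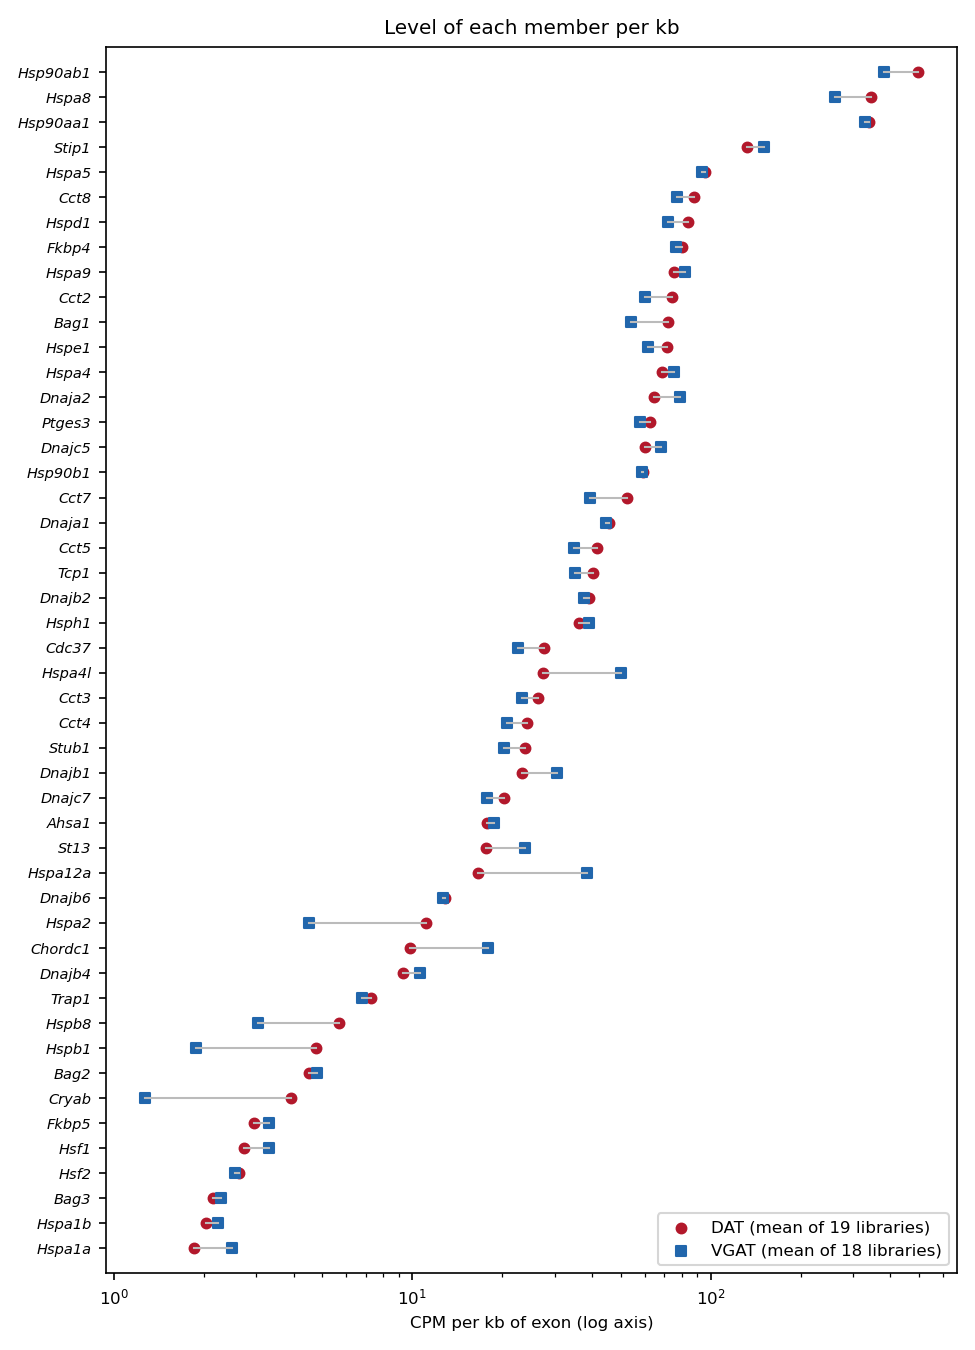
Mean level of each of the 48 genes in CPM per kb of exon (log axis), in DAT (circles, 19 libraries) and VGAT (squares, 18 libraries), ordered by the DAT level. Hsp90ab1 leads at 496 and 382 CPM per kb, and Hspa1a and Hspa1b lie at or below 2.48 in both models.

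The first comparison asked which chaperones differed between the cell types. Of the 48 genes, 32 were called, 19 higher in DAT and 13 higher in VGAT, where 58.1% of all 16898 genes tested were called, 28.7% higher in DAT and 29.3% higher in VGAT. The differences were small beside those of other genes, with a median absolute log2 fold change of 0.17 among the 48 and 0.43 over all genes tested. Grouped by role, all 9 chaperonin genes among the 48 and all 3 small heat shock proteins were higher in DAT. Of the Hsp110 and Hsp70 genes, 4 were called higher in VGAT (the Hsp110-type Hspa4 and Hspa4l, with Hspa9 and Hspa12a). Another 2 were called higher in DAT (Hspa2 and Hspa8). Of the J-proteins, 4 were called higher in VGAT and 1 higher in DAT. In the first-batch libraries alone 20 genes were called (43.9% of all genes) and in the second-batch libraries 38 (56.6%).

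**Figure D2:**
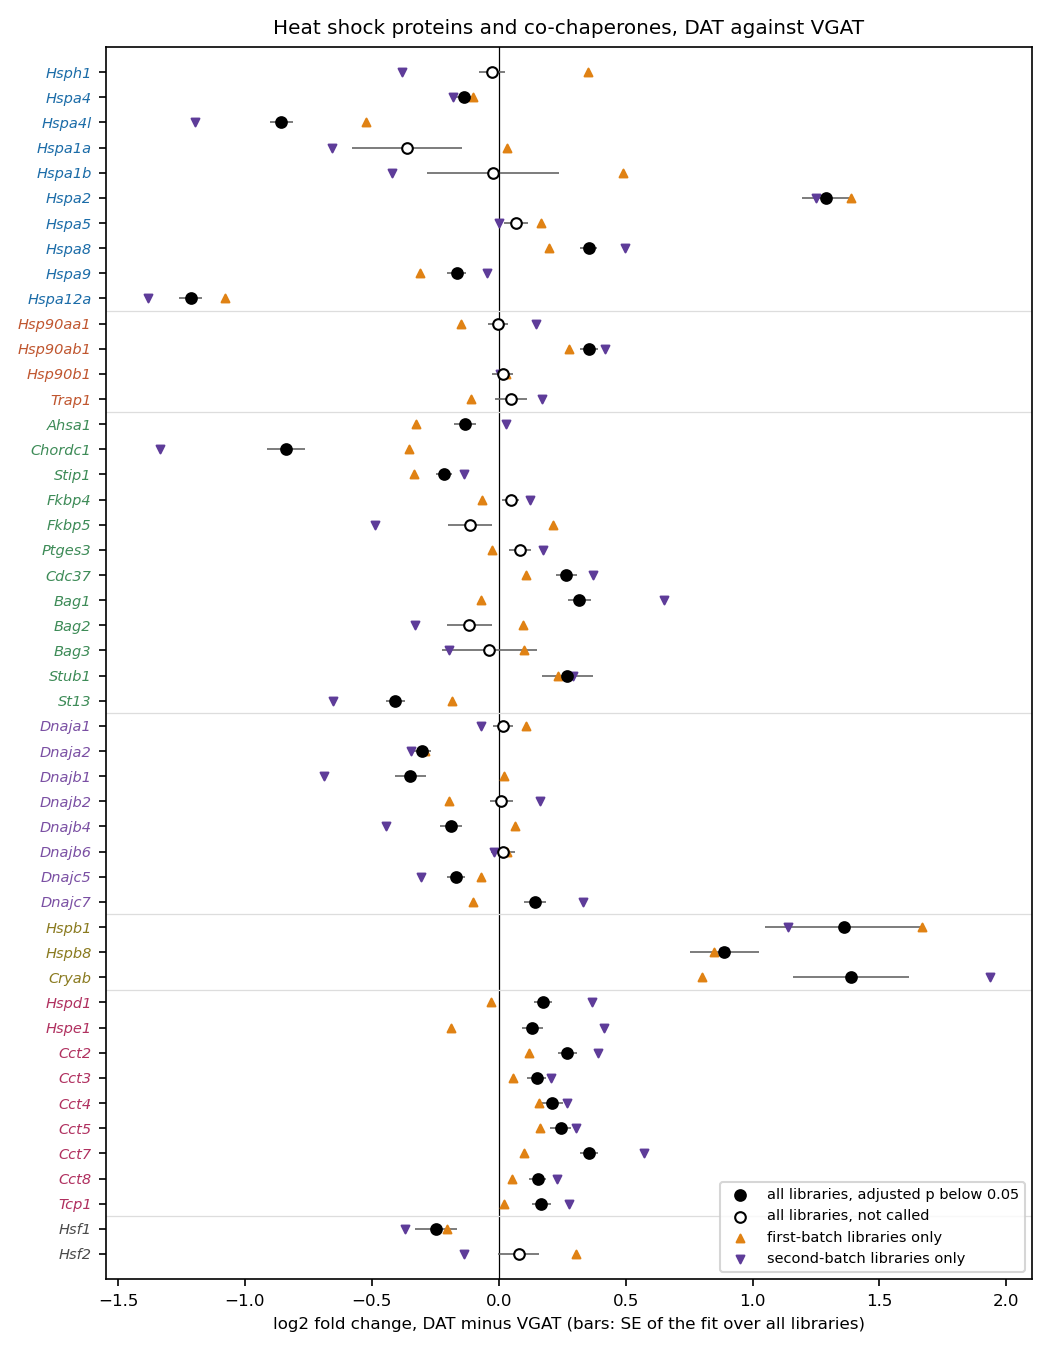
Log2 fold change of DAT over VGAT for each of the 48 genes, grouped by role, with black circles for the fit over all 37 libraries (filled where the adjusted p was below 0.05, bars SE), triangles up for first-batch and triangles down for second-batch libraries alone. The chaperonins and small heat shock proteins lie right of 0 in the fit over all libraries, Hspa12a at -1.21 and Hspa4l at -0.86 lie left of it, and Hsph1 changes side between batches, from 0.35 to -0.38.

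Hspa12a, an atypical member of the Hsp70 family (chromosome 19, 58784181 to 58932086, GRCm39), ranged from 117 to 208 CPM in the 19 DAT libraries (median 152) and from 312 to 420 in the 18 VGAT libraries (median 364). Every VGAT library lay above every DAT library. The log2 fold change of DAT over VGAT was -1.21 ± 0.04 (edgeR adjusted p = 7.46e-26), with -1.08 in first-batch and -1.38 in second-batch libraries.

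Hspa2, an Hsp70 best known from the testis (chromosome 12, 76450151 to 76453712), went the other way. Its levels were 24.6 to 54.7 CPM in DAT (median 38.3) and 10.6 to 20.5 in VGAT (median 15.4), again with no overlap. The fold change was 1.29 ± 0.09 (adjusted p = 4.8e-16, edgeR), and 1.39 and 1.25 in the separate batches. A non-coding gene on the opposite strand covers 30.7% of its exons, and the strand setting of the counting is not given in the sources used here. These were the 2 of 48 genes whose DAT and VGAT libraries did not overlap, beside 8.36% of all genes tested.

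Hspa4l, an Hsp110-type exchange factor for Hsp70 (chromosome 3, 40698643 to 40750538), was measured at 249 to 556 CPM in DAT (median 310) and 552 to 746 in VGAT (median 653). The ranges met only at their ends. The fold change of -0.86 ± 0.04 (edgeR adjusted p = 4.47e-21) held in both batches, at -0.52 and -1.20. Its relative Hspa4 was also higher in VGAT (-0.14 ± 0.05), with -0.10 in first-batch libraries, where it was not called, and -0.18 in second-batch libraries.

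Other Hsp70 genes moved less. Hspa8 rose to the DAT side, with 2393 to 3434 CPM (median 2981) against 1974 to 2811 (median 2159) in VGAT, a fold change of 0.35 ± 0.03 that was called within either batch. The mitochondrial Hsp70 gene Hspa9, which pulls imported proteins into the matrix, was lower in DAT by a fold change of -0.17 ± 0.04. It gave -0.31 in first-batch and -0.05 in second-batch libraries, and was not called in the second batch or in young libraries alone. Hspa5, Hspa1a, Hspa1b and Hsph1 were not called, at 0.07 ± 0.05, -0.36 ± 0.22, -0.02 ± 0.26 and -0.03 ± 0.05. In second-batch libraries alone Hspa1a was called, at -0.66, and in the first batch it gave 0.03.

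For Hsph1, the Hsp110 chaperone that also disaggregates proteins with Hsp70 (chromosome 5, 149537636 to 149560156), the value near 0 hid a disagreement of the batches. First-batch DAT libraries held 364 to 569 CPM (median 429) and first-batch VGAT libraries 270 to 481 (median 396), a fold change of 0.35 ± 0.08 (edgeR adjusted p = 0.00208). In the second batch the DAT libraries held 311 to 402 (median 363) and the VGAT libraries 360 to 493 (median 468), a fold change of -0.38 ± 0.05. Of the 16 genes not called over all libraries, Hsph1 among them, 2 kept one direction in both batches. The share of all uncalled genes that did so was not counted. The difference between the batches was not itself tested for Hsph1 or any other gene.

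Among the Hsp90 genes Hsp90ab1 was called, at 0.35 ± 0.03 (adjusted p = 3.29e-12, edgeR). It was measured at 2308 to 3160 CPM in DAT (median 2695) and 1907 to 2427 in VGAT (median 2011), overlapping slightly. An opposite-strand non-coding gene covers 29.9% of its exons. Hsp90aa1, the endoplasmic reticulum form Hsp90b1 and the mitochondrial form Trap1 gave 0.00 ± 0.04, 0.02 ± 0.04 and 0.05 ± 0.06, and were not called. By batch, Hsp90aa1 gave -0.15 in first-batch and 0.15 in second-batch libraries, and was called in the latter.

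Co-chaperones split, with 3 of 12 called higher in DAT and 4 higher in VGAT. Chordc1, an Hsp90-binding CHORD-domain protein (chromosome 9, 18203387 to 18228746), was at 35.9 to 138 CPM in DAT (median 73.3) and 122 to 184 in VGAT (median 141). Only the ends of the ranges overlapped. Its fold change of -0.84 ± 0.07 (edgeR adjusted p = 1.08e-12) was -0.36 in first-batch and -1.34 in second-batch libraries. First-batch DAT libraries held 88.2 to 138 CPM and second-batch DAT libraries 35.9 to 74.4, whereas the VGAT batches overlapped, at 125 to 184 and 122 to 174.

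St13, which bridges Hsp70 and Hsp90 complexes (chromosome 15, 81246186 to 81284287), was at 175 to 293 CPM in DAT (median 210) and 292 to 349 in VGAT (median 311), touching at the ends. The fold change was -0.41 ± 0.04 (adjusted p = 4.49e-13, edgeR), -0.18 in the first batch and -0.65 in the second. Stip1 (-0.22 ± 0.03) was higher in VGAT in either batch too. Ahsa1, which activates the Hsp90 ATPase, was higher in VGAT over all libraries (-0.13 ± 0.04), with 109 to 164 CPM in DAT (median 139) and 124 to 172 in VGAT (median 140), ranges that overlapped almost wholly. In second-batch libraries alone it gave 0.03 ± 0.05.

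On the DAT side were Bag1 (0.32 ± 0.05), an Hsp70 exchange factor, Cdc37 (0.27 ± 0.04), which brings kinases to Hsp90, and Stub1 (0.27 ± 0.10), the ubiquitin ligase CHIP. Bag1 gave -0.07 in first-batch and 0.65 in second-batch libraries. Stub1 lost its call without old male VGAT replicate 1 (0.21), and it shares 53.0% of its exon bases with the opposite-strand gene Jmjd8. Fkbp4, Fkbp5, Ptges3, Bag2 and Bag3 were not called. In second-batch libraries alone Fkbp4 (0.12), Fkbp5 (-0.49), Ptges3 (0.18) and Bag2 (-0.33) were called. Their signs were opposite in the first batch (-0.07, 0.22, -0.03 and 0.09), where none was called.

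Among the J-proteins, which deliver clients to Hsp70 and trigger its ATPase, 4 of 8 were called higher in VGAT and 1 higher in DAT. Dnaja1 (0.02 ± 0.04), Dnajb2 (0.01 ± 0.05) and Dnajb6 (0.02 ± 0.05) were not called. By batch, Dnajb2 was called in opposite directions, at -0.19 in the first and 0.16 in the second. Dnaja2 gave -0.30 ± 0.04 and stood at -0.29 and -0.35 in the separate batches. Dnajb1, the main partner of the cytosolic Hsp70s in disaggregation, gave -0.35 ± 0.06, Dnajb4 -0.19 ± 0.04 and Dnajc5, the cysteine string protein of synaptic vesicles, -0.17 ± 0.04. The first batch alone gave 0.02 for Dnajb1 and 0.06 for Dnajb4, and the second -0.69 and -0.44. Dnajc7 (0.14 ± 0.04), the J-protein called higher in DAT, also changed sign between batches, from -0.10 in the first to 0.33 in the second.

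The 9 chaperonin genes of the list were called higher in DAT, with fold changes from 0.13 to 0.35. Cct6a, a CCT subunit outside the 48 genes, was also tested and was not called, at -0.02 ± 0.03 (edgeR adjusted p = 0.606). The 7 subunits in the list of the cytosolic chaperonin CCT, the barrel that folds actin and tubulin, had a median of 0.21, led by Cct7 at 0.35 ± 0.04 (edgeR adjusted p = 1.07e-11) and Cct2 at 0.27 ± 0.04. All 7 were on the DAT side in either batch, though in first-batch libraries alone Cct4 (0.16) and Cct5 (0.16) were the ones called. The mitochondrial pair Hspd1 and Hspe1, which share the divergent promoter shown above, gave 0.17 ± 0.04 and 0.13 ± 0.04. In first-batch libraries Hspd1 gave -0.03 and Hspe1 was called higher in VGAT (-0.19 ± 0.06, adjusted p = 0.0237, edgeR), whereas in the second batch they gave 0.37 and 0.42.

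Of the 48 genes, the small heat shock proteins Cryab and Hspb1 had the largest differences toward DAT, and Hspb8 came after Hspa2. Cryab, alpha-B crystallin (chromosome 9, 50651859 to 50668567), which oligodendrocytes also express strongly, ranged from 4.91 to 42.0 CPM in DAT (median 15.9) and from 2.32 to 17.9 in VGAT (median 4.45). The fold change was 1.39 ± 0.23 (edgeR adjusted p = 2.34e-06), 0.80 in the first batch and 1.94 in the second. First-batch DAT libraries stayed at a median of 6.45 CPM, and second-batch DAT libraries reached a median of 24.1.

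Hspb1, Hsp27 (chromosome 5, 135916760 to 135918417), was at 0 to 9.47 CPM in DAT (median 4.94) and 0.777 to 3.71 in VGAT (median 1.90). A second-batch young female DAT library had no Hspb1 count at all, and the ranges overlapped. The fold change was 1.36 ± 0.31 (adjusted p = 0.000209, edgeR), called in either batch. Hspb8, which works with Bag3 in clearing misfolded proteins (chromosome 5, 116546409 to 116561084), was at 4.23 to 18.7 CPM in DAT (median 12.8) and 4.27 to 9.41 in VGAT (median 6.97), with a fold change of 0.89 ± 0.14 (edgeR adjusted p = 2.61e-07).

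Markers of non-neuronal cells moved in the same direction as these 3 genes, and as Hspa2 (1.29) and the other genes called higher in DAT. The summed CPM of the 10 oligodendrocyte markers was 528 to 2449 in DAT and 264 to 1033 in VGAT, and that of the 10 endothelial and mural markers 66.7 to 301 and 30.7 to 73.8. The 10 astrocyte markers summed to 887 to 2295 CPM in DAT and 884 to 1422 in VGAT, and no marker of the 3 lists was at 0 in all libraries. The median log2 fold changes of the lists were 1.35, 1.78 and 1.37. Microglial markers did not share this direction, with 1 of 10 called higher in DAT, a median of -0.06 and sums of 45.0 to 152 CPM in DAT and 21.0 to 201 in VGAT. The part of these cells in the small heat shock protein result, or in that of Hspa2 or any other gene higher in DAT, was not tested.

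**Figure D3:**
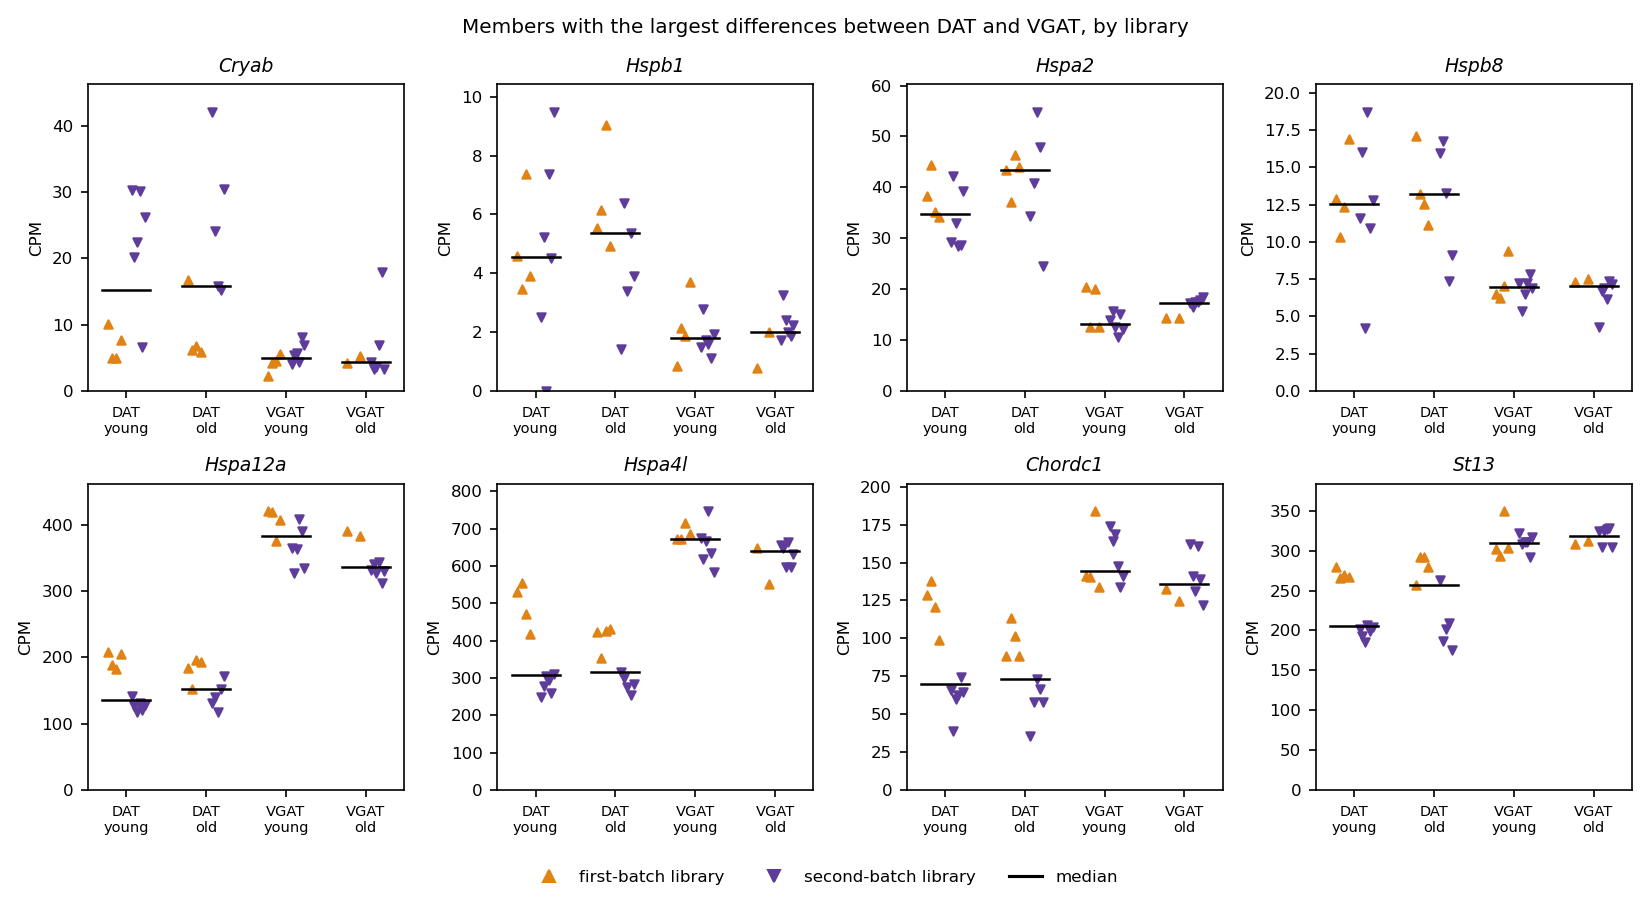
CPM of the 4 genes with the largest difference toward DAT (top row) and the 4 with the largest toward VGAT (bottom row) in every library, by model and age, with first-batch libraries as triangles up, second-batch libraries as triangles down and a line at the median. Hspa2 and Hspa12a do not overlap between the models, and Cryab and Chordc1 differ between the DAT batches.

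Of the factors themselves, Hsf1, the master regulator of the heat shock response, was slightly higher in VGAT (-0.25 ± 0.08, edgeR adjusted p = 0.00901). Hsf2 was not called (0.08 ± 0.08). By batch, Hsf2 gave 0.30 in first-batch libraries, where it was called, and -0.14 in second-batch libraries, where it was not. The gene Dgat1 on the opposite strand shares 24.9% of the exon bases of Hsf1.

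Of the 32 called genes, 25 kept their direction in both batches and 14 were called in both, where of the 9812 genes called over all libraries 88.4% kept their direction and 50.2% were called in both. These 14 were Hspa2, Hspa8, Hsp90ab1, Hspb1, Hspb8, Cryab, Cct4 and Cct5 on the DAT side and Hspa4l, Hspa12a, Chordc1, Stip1, St13 and Dnaja2 on the VGAT side. The 7 that turned were Ahsa1, Bag1, Dnajb1, Dnajb4, Dnajc7, Hspd1 and Hspe1. By age, all 32 kept their direction in young and in old libraries alone and 21 were called in both, where 95.3% and 62.4% of those 9812 genes did so. A gene filtered out of a smaller set of libraries counts here as not kept.

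Chaperone genes outside the 48 were tested as well: of 78 found in the tables, 72 had enough counts, 26 were called higher in DAT and 27 higher in VGAT. This was 73.6% of the 72, where 66.7% of the 48 and 58.1% of all genes tested were called, and the lists were not tested against each other. The smallest p on the DAT side belonged to Hsbp1, a small binding partner of heat shock factor 1 (0.83 ± 0.04), Sil1, the exchange factor of Hspa5 (1.26 ± 0.07), and Dnajc12, a J-protein that partners aromatic amino acid hydroxylases such as tyrosine hydroxylase (0.55 ± 0.05). On the VGAT side they belonged to Dnajc27 (-0.72 ± 0.04), Dnajc15 (-0.96 ± 0.05) and Cdc37l1, a relative of Cdc37 (-0.67 ± 0.04).

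The second question was how the chaperones changed with age. In DAT no member was called between old and young, where 0.00672% of 14889 genes tested were. None passed the looser cutoff of the study (absolute log2 fold change above 0.5 with an adjusted p under 0.5), which 0.101% of genes did. Here, and for VGAT below, that cutoff was set on edgeR values of all genes tested. The study set it on DESeq2 values after removing astrocytic and microglial genes and correcting for batch, so the 2 uses are unlike. At an unadjusted p below 0.05 there were 10 genes lower and 0 higher in old libraries, 20.8% of the 48 against 5.28% of all genes. DESeq2 and limma-voom also called 0. As a description, 35 of the 48 had a negative fold change, against 49.3% of all genes, and the median was -0.10 against 0.00.

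The smallest p was that of Ptges3, p23, the co-chaperone that locks Hsp90 in its closed form (chromosome 10, 127894816 to 127913141). It was at 124 to 188 CPM in the 10 young DAT libraries (median 144) and 105 to 147 in the 9 old (median 126). The groups overlapped. The log2 fold change of old over young was -0.25 ± 0.06 (edgeR adjusted p = 0.380), at -0.24 in the first batch and -0.26 in the second.

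Hspe1, the lid of the mitochondrial chaperonin, was at 114 to 159 CPM in young (median 135) and 104 to 133 in old DAT libraries (median 110), with overlap. It gave -0.22 ± 0.07 (edgeR adjusted p = 0.636). Hspa9 was at 361 to 457 CPM in young (median 403) and 304 to 423 in old (median 359), also overlapping, and gave -0.18 ± 0.06 (adjusted p = 0.870, edgeR). The others with an unadjusted p below 0.05 were Hsph1, Hsp90aa1, Hsp90b1, Ahsa1, Stip1, Hspd1 and Cct7, none of which was called.

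By role in DAT, 4 of 4 Hsp90 genes, 8 of 9 chaperonins, 7 of 8 J-proteins and 8 of 10 Hsp70 and Hsp110 genes had negative values, whereas the 3 small heat shock proteins had positive ones (0.01 to 0.24). The inducible pair Hspa1a and Hspa1b gave the most negative estimates with wide errors, -0.52 ± 0.32 and -0.59 ± 0.34.

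In VGAT no member was called either (0.0256% of 15607 genes were, and 0.199% passed the cutoff of the study, again with no member). At an unadjusted p below 0.05 there were 8 genes lower and 1 higher, 18.8% of the 48 against 5.98% of all genes, and DESeq2 and limma-voom called 0. Negative values were seen for 37 of 48 genes, against 50.5% of all, with a median of -0.04.

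Hsph1 had the smallest p. It was at 378 to 493 CPM in the 10 young VGAT libraries (median 468) and 270 to 489 in the 8 old (median 434), overlapping over most of the range. Split by batch, the fold change was -0.48 ± 0.12 in the first batch, which held 2 old libraries of 270 and 336 CPM, and -0.09 ± 0.06 in the second. In DAT the corresponding values were -0.35 ± 0.10 and -0.07 ± 0.08, and the difference between the batches was not tested. Over all libraries Hsph1 gave -0.21 ± 0.07 in VGAT (edgeR adjusted p = 0.732) and -0.19 ± 0.07 in DAT (adjusted p = 0.884), where young libraries held 314 to 569 CPM (median 395) and old ones 311 to 450 (median 374).

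Bag2, an inhibitor of the ligase Stub1, was the single gene with a higher value at that level, at 10.8 to 17.9 CPM in young VGAT libraries (median 15.5) and 12.6 to 22.6 in old (median 17.5). The fold change was 0.27 ± 0.10 (adjusted p = 0.767, edgeR). Hspa12a was at 327 to 420 CPM in young (median 382) and 312 to 391 in old VGAT libraries (median 336), a fold change of -0.11 ± 0.04 (edgeR adjusted p = 0.767) with overlap. In DAT the corresponding values were 0.02 ± 0.15 for Bag2 and 0.04 ± 0.07 for Hspa12a.

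Ahsa1 gave -0.17 ± 0.07 in DAT and -0.08 ± 0.04 in VGAT. Its libraries held 119 to 164 CPM in young and 109 to 151 in old DAT, and 128 to 172 and 124 to 164 in VGAT. Chordc1 gave -0.17 ± 0.12 and -0.15 ± 0.07, with 39.2 to 138 and 35.9 to 114 CPM in young and old DAT, and 134 to 184 and 122 to 162 in VGAT. Every pair of ranges overlapped. At its own cutoff the study lists Hsph1, Chordc1 and a gene printed as Asha1 among those downregulated with age in both models. Here Hsph1, Chordc1 and Ahsa1 had negative values in both models, and none of them was called.

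**Figure D4:**
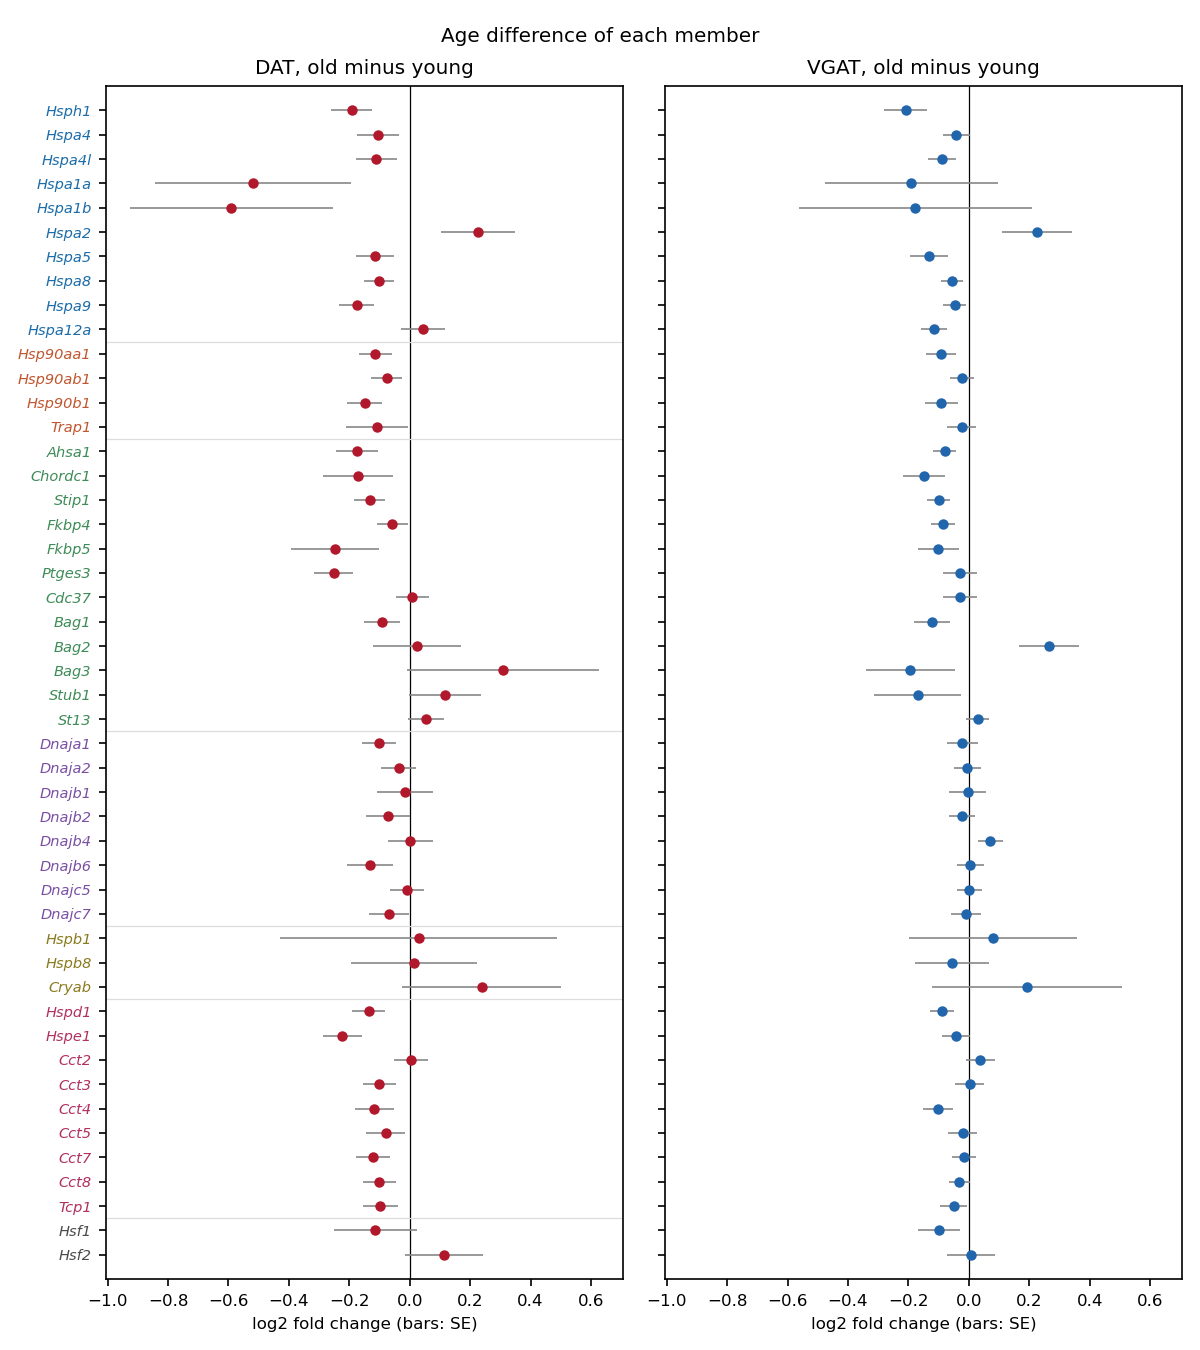
Log2 fold change of old over young for each of the 48 genes, grouped by role, in DAT (left) and VGAT (right), with bars for the SE of the fit. In DAT 35 and in VGAT 37 of the points lie left of 0, most of them within 0.2 of it, and none was called.

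Old and young libraries were also set against each other one by one. Over all libraries no member had old and young groups apart in either model, where 0.00672% of all genes tested in DAT and 0.0192% in VGAT did. The counts within batches depend on the number of libraries, which was smaller in the first batch, and are to be read against the share of all genes beside each. Within first-batch DAT libraries (4 young, 4 old) 9 of the 48 genes had every old library below every young one, where 3.06% of all genes did: Hspa4, Hspa9, Hsp90aa1, Hsp90b1, Stip1, Fkbp5, Dnajb4, Hspd1 and Cct8. Within the second batch (6 young, 5 old) it was Hspe1 alone, with 0.336% of all genes. In first-batch VGAT libraries (4 young, 2 old) 11 genes did so, Hsph1, Hspa4l, Hspa5, Hspa8, Hsp90aa1, Hsp90b1, Chordc1, Dnajb1, Hspd1, Cct4 and Hsf2, with 6.49% of all genes. In the second batch (6 young, 6 old) it was Stip1 and Fkbp4, with 0.416% of all genes. Every old library above every young one was seen in VGAT for Bag2 in the first batch (6.45% of all genes) and for Hspa2 in the second (0.378%), and for no member in DAT. The first-batch medians over the 48 genes were -0.11 in DAT and -0.07 in VGAT, and those of the second batch -0.07 and -0.02.

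The share of all counts taken by the 48 genes was measured too. In first-batch DAT libraries it was 1.70 to 1.75% in young and 1.56 to 1.60% in old mice, without overlap, and in the second batch 1.54 to 1.78% and 1.34 to 1.66%, with overlap. In VGAT it was 1.63 to 1.80% and 1.55 to 1.56% in the first batch and 1.45 to 1.53% and 1.46 to 1.51% in the second. This share rests mainly on Hspa8, Hsp90ab1 and Hsp90aa1 and was not tested.

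**Figure D5:**
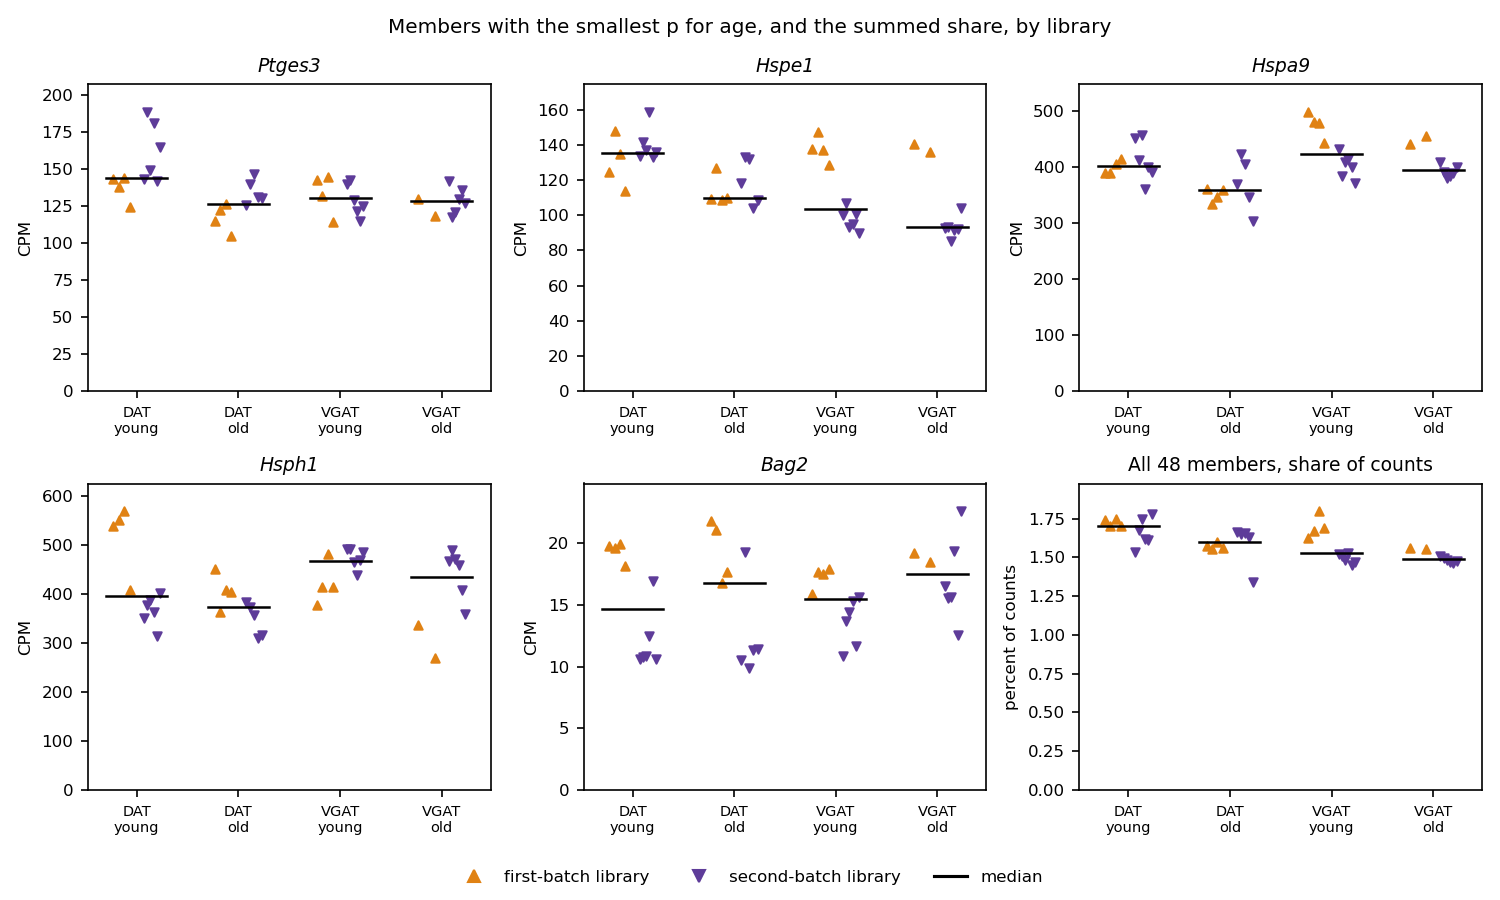
CPM of Ptges3, Hspe1, Hspa9, Hsph1 and Bag2 and the percent of counts on all 48 genes, in every library by model and age, with first-batch libraries as triangles up, second-batch libraries as triangles down and a line at the median. Old and young libraries overlap in every panel, and the 4 young first-batch DAT libraries (1.70 to 1.75%) lie above the 4 old ones (1.56 to 1.60%) in the last.

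Glial markers had mostly positive age values over all libraries of a model, opposite in sign to most chaperones. In DAT 10 of 10 astrocyte markers had positive values (median 0.32, sums of 887 to 1871 CPM in young and 1018 to 2295 in old) and in VGAT 9 of 10 (median 0.29, sums of 884 to 1167 and 930 to 1422). Microglial markers gave 9 of 10 positive in DAT (median 0.73, sums of 45.0 to 82.3 and 54.2 to 152) and 7 of 10 in VGAT (median 0.27, sums of 21.0 to 149 and 25.0 to 201). In VGAT this split by sex, with 10 of 10 positive in females (median 0.58) and 0 of 10 in males (median -0.56). Oligodendrocyte markers gave 10 of 10 positive in either model (medians 0.27 and 0.35), with sums of 528 to 2357 and 629 to 2449 CPM in DAT and 288 to 512 and 264 to 1033 in VGAT. In VGAT they were positive for 0 of 10 in females (median -0.18) and 10 of 10 in males (median 0.92), and the median of the sum was 392 CPM in young and 369 in old libraries. None of these markers was called, none was at 0 in all libraries, and their part in the age values of the chaperones was not tested. Dopamine neuron markers had a median of 0.02 in DAT and GABA neuron markers one of -0.03 in VGAT. In VGAT, dopamine neuron markers were positive for 7 of 8 (median 0.18), and for 8 of 8 in females and in males alone, with sums of 769 to 3155 CPM in young and 1729 to 2517 in old libraries, and in DAT 2 of 8 GABA neuron markers were positive (median -0.06).

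The fold changes of the 48 genes came from separate mice in the 2 models. Of the 48, 32 were negative in both, 8 positive in both and 8 split. Of all genes tested 49.3% were negative in DAT and 50.5% in VGAT, and the share negative in both was not counted. The difference of the age effects itself was called for 0 members and for 0% of all genes (2 members and 3.89% of all genes had an unadjusted p below 0.05), so no gene was shown to age differently in the 2 cell types. DESeq2 and limma-voom called 0 members here too.

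By sex, no member was called in DAT females (0% of all genes), DAT males (0%), VGAT females (0.032%) or VGAT males (0.0315%), and the age-by-sex differences called no member in DAT (0% of all genes) or VGAT (0%). The comparisons held unlike numbers of mice, fewest in VGAT males (3 old, 4 young), so their counts are not of equal power. Unadjusted p-values below 0.05 were found for 4, 10, 5 and 4 members in the 4 single-sex comparisons, in the same order. They were 8.33%, 20.8%, 10.4% and 8.33% of the 48, against 4.05%, 5.50%, 5.59% and 5.12% of all genes tested. In the age-by-sex comparisons of DAT and VGAT they were found for 1 and 5 members. This was 2.08% and 10.4% of the 48, against 4.25% and 5.09% of all genes. DESeq2 and limma-voom called 0 in each comparison. Medians were -0.07 and -0.12 in DAT females and males and -0.05 and -0.03 in VGAT females and males. In all 4 single-sex comparisons 18 genes were negative, among them Hsph1, Hsp90aa1, Hsp90b1, Hspa5, Hspa8, Stip1, Ahsa1, Chordc1 and Hspd1. The share of all genes negative in all 4 was not counted, and the single-sex comparisons use parts of the same libraries as those over both sexes.

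Of the other chaperone genes, 34 of 70 tested were negative in DAT (median 0.00) and 40 of 71 in VGAT (median -0.01), and none was called by edgeR. At an unadjusted p below 0.05 there were 8 lower and 3 higher in DAT (15.7% of the 70) and 3 lower and 0 higher in VGAT (4.23% of the 71). The lists were not tested against each other. The smallest p-values were those of Ppid, cyclophilin 40, an Hsp90 co-chaperone (-0.26 ± 0.07, edgeR adjusted p = 0.380), and Bag6 (0.17 ± 0.06) in DAT, and of the endoplasmic reticulum chaperone Calr (-0.11 ± 0.05) and Dnajc21 (-0.12 ± 0.06) in VGAT.

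The third question was whether Hsph1 varied from mouse to mouse together with heat-inducible and constitutive chaperones. Log2 CPM of Hsph1 was set against 10 other genes across the libraries of each model, after the means of age-by-batch groups were taken out. The 10 were Hspa1a, Hspa1b, Dnajb1, Hsp90aa1, Hspa8, Chordc1, Ahsa1, Bag3, Hspb1 and Stip1. Of the 20 relations 1 was called. In VGAT (n = 18) Hsph1 went with Dnajb1, with Pearson's r = 0.721 (permutation p = 0.00074, adjusted over the 20 relations 0.0148) and Spearman's rho = 0.674 (permutation p = 0.00307, adjusted 0.0307). Without the 2 libraries farthest from the median of Hsph1 r was 0.688, and within the batches it was 0.708 (n = 6) and 0.730 (n = 12). The permutations shuffled residuals across all libraries of a model and ignored the age and batch groups whose means were removed. The permutation p-values of both models can therefore be too small. The 2 old first-batch VGAT libraries have mirrored residuals, so r at n = 6 rests on fewer free values. The number of called relations hung on single libraries. Without young female VGAT replicate 1 it was 0, without any of 7 other VGAT libraries (old female replicates 3 and 4, young female replicate 6, old male replicate 3, and young male replicates 1, 3 and 4) it was 4, and without any of 7 DAT libraries (old female replicates 3 and 4, young female replicates 2 and 4, old male replicate 1, and young male replicates 1 and 2) it was 2 to 5.

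In DAT (n = 19) r for Hsph1 and Dnajb1 was 0.0298 (permutation p = 0.903), and whether the models differ was not tested. The nearest relation there was with Stip1, r = 0.606 (permutation p = 0.00599, adjusted 0.0541) and rho = 0.653 (permutation p = 0.00299, adjusted 0.0307), with r = 0.226 in the first batch (n = 8) and 0.875 in the second (n = 11). With Hsp90aa1 r was 0.590 in DAT (permutation p = 0.00812, adjusted 0.0541). Of the 20 coefficients 18 were positive, 8 of 10 in DAT and 10 of 10 in VGAT, and values of one library share its depth and scaling.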

How the data were processed

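RNA bound to GFP-tagged ribosomes of the ventral midbrain was sequenced as poly-A selected directional libraries, 1 per mouse. Per the labels and the methods of the study, STAR 2.7.10b was run by the authors against mm39 (GRCm39), and featureCounts gave their gene counts, with a version and strand setting that are not given in the sources used here. The deposited values are raw counts of 57180 genes in 2 tables, 1 for each model, joined here by gene identifier. No column was left out. The authors' removal of low counts and glial genes, batch correction and DESeq2 tests came after these tables.

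The members and lists were chosen with earlier results of these data known. Libraries were grouped by the labels for model, age, sex and batch, and the labels do not say whether same-numbered mice were paired. Age was tested within each model with batch as a term, and the cell type in a joint fit with batch within model, by edgeR 4.0.16 in R 4.3.3 (TMM factors, filterByExpr with a minimum count of 10, robust quasi-likelihood F test, Benjamini-Hochberg over all genes tested). Tests were checked on simulated data. Values per library were given for the 4 members with the largest called fold in each direction of the cell type comparison, the 3 with the smallest p in each age comparison, and Hsph1, Ahsa1 and Chordc1. Hspa8, Hsp90ab1 and Cct6a, and the members listed as not overlapping, were added after their values were seen. From the other chaperone list, the 3 smallest p in each direction (cell type) and the 2 smallest (age) were named.

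Log2 CPM used a prior count of 2. Correlations used two-sided permutation tests with 100000 resamples of residuals across all libraries of a model, adjusted over 20 relations. Exon lengths and positions came from GENCODE M39. Of the 48 members, 40 shared exon bases with another annotated gene, 18 of them over 10%. All 70 pairs of libraries of 1 condition differed beyond sampling noise (lowest chi-square per degree of freedom 5.22). Alternatives were RLE factors, DESeq2 1.42.0, limma-voom (limma 3.58.1), no count filter, a minimum count of 50, no batch term, sex as a term, a replicate block, single batches, single age groups, a shared batch term, no mice of 7, 10.5 and 24 months, the cutoff of the study, and leaving out each library.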

Additional observations from a re-analysis of the deposited data

Results flagged for a closer look

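Values of 14 genes in each model and age group, and the share of counts on the 48 genes, were searched for a library far from the rest of its group by Dixon's test, 60 groups in all. It marked 4, and chance marks about 1 in 20 groups. The second old male VGAT library held 17.9 CPM of Cryab, where the next highest of the 8 old VGAT libraries held 7.01. The second old female VGAT library held 4.27 CPM of Hspb8, below the next at 6.17. The third young female VGAT library held 349 CPM of St13, above the next of 10 at 322. The fifth old male DAT library had 1.34% of its counts on the 48 genes, below the next of 9 at 1.56%. None of the tests of a difference between age effects, by cell type or by sex, called a member.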

How the results depend on the processing

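The count of members called in the cell type comparison stayed between 24 and 38 (32 in the report) under 13 of 14 alternatives and was 20 in first-batch libraries alone, and it was 32 to 33 when single libraries were left out. Across the 32 called genes and 14 alternatives, 411 of 448 values kept direction and call, 30 lost the call and 7 reversed: in first-batch libraries alone Bag1 (-0.0698), Dnajb1 (0.0202), Dnajb4 (0.0643), Dnajc7 (-0.10), Hspd1 (-0.0295) and Hspe1 (-0.19), and in second-batch libraries alone Ahsa1 (0.0301). Leaving out single libraries kept 1183 of 1184 such values, Stub1 losing its call once. In the age comparisons, apart from fits with 1 old library in a group, the count of 0 changed under 1 alternative. This was VGAT males without a count filter, where 1 member (Hsph1, lower) was called. First-batch libraries held 1 old and 2 young DAT females, and 1 old and 3 young VGAT females, so no count is given for these fits. VGAT males of the first batch could not be fitted. The median age value of the 48 genes stayed negative under all alternatives, from -0.11 to -0.07 in DAT and -0.07 to -0.02 in VGAT. The count of relations with Hsph1 was 7 without batch removed and 0 in the first batch, and 0 to 5 with single libraries left out (1 in the report). The 2-repeat heat shock element was found for 17 genes in place of 5. The causes of these shifts were not tested. Residuals of 17 same-numbered pairs of mice correlated at -0.14 to 0.07, and 1 was the best match of its library. Such residuals cannot tell whether the design paired the mice, since paired mice need not correlate. With a replicate block 33 members were called in the cell type comparison and 0 in each of the others. Depth limits Hspa1a, Hspa1b, Bag3, Hspb1, Hspb8 and Cryab, whose lowest library had under 100 counts.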
